A study of Mus musculus with 16 samples.

Results

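The genes described here are 6 genes of suprabasal keratinocytes: the keratins Krt1 and Krt10, the secreted proteins Krtdap, Sbsn and Dmkn, and the calcium-binding protein Calm4. They are 6 of 22579 genes in the deposited counts of an organoid culture of mouse hair follicle stem cells. Each gene was taken by its name, with the transcript chosen by the most ribosome footprints over the 8 Ribo-seq libraries. The names were put together with results of these data in view, so the p-values below describe these 6 genes and support no claim about how they were found.

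In stratified epithelium, basal keratinocytes hold filaments of Krt5 and Krt14, and cells that leave the basal layer for the spinous layer replace them with the type II keratin Krt1 and its type I partner Krt10. Krtdap, Sbsn and Dmkn (keratinocyte differentiation-associated protein, suprabasin and dermokine) are secreted proteins of the spinous and granular layers whose genes lie side by side. Calm4 is a calmodulin-like protein of differentiating mouse epidermis. In the mouse hair follicle, the stem cells of the bulge carry CD34 on their surface.

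Epidermal cells of C57BL/6J mice were grown as 3D–3C organoids for 2 weeks and sorted into α6+/CD34− progenitors and α6+/CD34+ HFSCs, from cultures left untreated or given N1-acetylspermidine (N1-AcSpd), an acetylated polyamine, for the last 72 h. The 4 groups are therefore untreated progenitors, untreated HFSCs, N1-AcSpd progenitors and N1-AcSpd HFSCs, and all share the strain, the culture and the sort. Each group was sequenced by RNA-seq and by Ribo-seq (ribosome footprints of 24–36 bases) from the same lysates of 2 donor mice, which gives 16 libraries and n = 2 per group and assay. Per the methods, epidermal cells came from telogen mice of both sexes in a younger and an older age window; which sex and window each donor mouse had is not given in the sources used here. An organoid lacks the layered epidermis in which these genes are usually studied.

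The 8 RNA-seq libraries held 21601141 to 31505435 counts on the transcripts kept and the 8 Ribo-seq libraries 34467 to 267921 footprints, so footprint values rest on far fewer reads. The sort was visible in the data: Cd34, which encodes the sorted antigen, had 53 to 111 RNA-seq counts per progenitor library and 2132 to 2292 per HFSC library. The N1-AcSpd HFSC RNA-seq libraries stood apart from the rest. Across 12242 genes the difference between the mice in that group correlated at −0.57 to −0.40 with the same difference in the other 3 groups, which correlated at 0.35 to 0.59 among themselves. The group comparisons below do not use the mouse number unless a blocked fit is named, and values without 1 of these libraries are given where that changed a call or a direction, or moved an RNA fold by over 1.5 times.

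Sbsn (chr7:30751471-30756134), Dmkn (chr7:30763756-30781063) and Krtdap (chr7:30787896-30791097) are on the plus strand of GRCm38 within 39627 bases, with no other protein-coding gene between them. Krt10 is at chr11:99385254-99389364 on the minus strand, Krt1 at chr15:101845426-101850794 on the minus strand, and Calm4 at chr13:3837757-3838673 on the plus strand as a gene of 1 exon. RefSeq promoters (GRCm38.p6) were matched for 5 of 6 genes. The promoters of the 3 neighbouring genes are shown because these genes share a locus, 5′ to 3′ on the plus strand and ending at the base before the RefSeq start, with matches to the AP-1 motif TGANTCA and the TATA motif TATAAA in capitals.
Sbsn, chr7:30751321-30751470: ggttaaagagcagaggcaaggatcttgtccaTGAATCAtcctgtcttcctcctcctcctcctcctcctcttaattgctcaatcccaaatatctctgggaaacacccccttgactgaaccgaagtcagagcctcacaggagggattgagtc
Dmkn, distal start, chr7:30763606-30763755: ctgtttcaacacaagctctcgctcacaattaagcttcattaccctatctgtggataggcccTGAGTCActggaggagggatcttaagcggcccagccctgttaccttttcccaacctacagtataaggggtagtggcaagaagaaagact
Dmkn, internal start, chr7:30776255-30776404: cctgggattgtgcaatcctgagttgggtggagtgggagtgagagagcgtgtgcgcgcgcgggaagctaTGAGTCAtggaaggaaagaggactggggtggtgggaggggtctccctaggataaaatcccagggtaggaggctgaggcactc
Krtdap, chr7:30787755-30787904: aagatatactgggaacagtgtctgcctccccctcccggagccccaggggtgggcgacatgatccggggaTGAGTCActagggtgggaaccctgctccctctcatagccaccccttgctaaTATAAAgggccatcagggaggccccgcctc
Each of these windows holds 1 AP-1 match, searched on both strands, and the Krtdap window also holds a TATA match, searched on the gene's strand. Of 32851 promoters, 4.24% hold TGANTCA and 4.84% hold TATAAA within the 150 bases before the start. In the 250 bases before the start, where the shares are 6.75% and 7.59%, Krt10 has TATAAA and no TGANTCA, and Calm4 has neither set of letters.

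The 6 genes spanned a wide range of levels. On the scale of mean RNA-seq CPM (counts scaled to TMM-adjusted library sizes) per kilobase of transcript, Dmkn had a level of 229.8 (rank 308 of 14185 genes) and Krtdap one of 223 (rank 315). Sbsn followed at 118 and Calm4 at 71.4, then Krt1 at 15.2 (rank 4405) and Krt10 at 5.04 (rank 7883). The basal keratins were at ranks 2 and 3 of all genes, with Krt14 at 9425 and Krt5 at 9104 CPM per kilobase. On the scale of Ribo-seq CPM per kilobase of coding sequence, the order was Calm4 at 612, Krtdap at 578, Dmkn at 445, Sbsn at 321, Krt1 at 73.3 and Krt10 at 6.37.

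Krt1 RNA was highest in N1-AcSpd progenitors and lowest in untreated HFSCs. In mice 1 and 2, its RNA-seq CPM was 30.3 and 21.2 in untreated progenitors, 8.24 and 9.24 in untreated HFSCs, 119 and 63.4 in N1-AcSpd progenitors, and 16.2 and 31.4 in N1-AcSpd HFSCs. Both untreated HFSC libraries were below all the others, and the N1-AcSpd HFSC libraries overlapped those of untreated progenitors. The RNA level was 2.95-fold lower in HFSCs than in progenitors without treatment (log2 fold change −1.56, SE 0.37) and 3.81-fold lower with N1-AcSpd (−1.93, SE 0.36). With N1-AcSpd it was 3.54-fold higher in progenitors (1.82, SE 0.36) and 2.74-fold higher in HFSCs (1.45, SE 0.37).

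Krt10, the filament partner of Krt1, had the same order of groups at a lower level. Its RNA-seq CPM in mice 1 and 2 was 10.1 and 6.46 in untreated progenitors, 2.64 and 2.80 in untreated HFSCs, 35.2 and 15.8 in N1-AcSpd progenitors, and 3.37 and 8.06 in N1-AcSpd HFSCs. The N1-AcSpd progenitors did not overlap any other group. The fold differences were 3.04 and 4.42 lower in HFSCs than in progenitors (untreated and N1-AcSpd), and 3.08 and 2.12 higher with N1-AcSpd (progenitors and HFSCs). Single libraries carried much of this. Between N1-AcSpd cells the log2 difference of −2.14 ran from −1.45 without mouse 1 of the progenitors to −2.90 without mouse 2 of the HFSCs. With N1-AcSpd in progenitors the value of 1.62 ran from 0.93 without mouse 1 to 2.10 without mouse 2 of the N1-AcSpd libraries, and in HFSCs the value of 1.08 was 0.32 without mouse 2 and 1.54 without mouse 1 of the N1-AcSpd libraries.

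Krtdap RNA ran between 48.7 and 198 CPM. In mice 1 and 2 it was at 115 and 101 CPM in untreated progenitors, 60.0 and 51.1 in untreated HFSCs, 198 and 141 in N1-AcSpd progenitors, and 48.7 and 124 in N1-AcSpd HFSCs. The N1-AcSpd HFSC libraries were the widest pair, 1 below and 1 above both untreated HFSC libraries. The RNA level was 1.94-fold lower in untreated HFSCs and 1.97-fold lower in N1-AcSpd HFSCs than in the matching progenitors, and 1.57-fold higher with N1-AcSpd in progenitors. Between N1-AcSpd cells the log2 difference of −0.98 was −0.47 without mouse 1 of the HFSCs and −1.78 without mouse 2, where it was called (adjusted p 0.0384, edgeR). In HFSCs the change with N1-AcSpd was 0.63 on the log2 scale (SE 0.36), and −0.18 without mouse 2 of the N1-AcSpd HFSCs.

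Sbsn RNA, in the same order of groups, was at 243 and 281 CPM, at 132 and 224 CPM, at 465 and 372 CPM, and at 196 and 190 CPM. Both N1-AcSpd progenitor libraries were above the rest, and the untreated and N1-AcSpd HFSCs overlapped. Sbsn was 2.17-fold lower in HFSCs than in progenitors with N1-AcSpd (log2 fold change −1.12, SE 0.22) and 1.47-fold lower without it (−0.56, SE 0.22). N1-AcSpd went with a 1.60-fold higher level in progenitors, and in HFSCs the log2 difference was 0.11 (SE 0.22), which became −0.19 without mouse 1 of the untreated HFSCs.

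Dmkn RNA was the most even of the 6, at 449.8 and 527 CPM in untreated progenitors, 355 and 437 in untreated HFSCs, 622 and 570.4 in N1-AcSpd progenitors, and 380.5 and 449.5 in N1-AcSpd HFSCs. Its highest group mean was 1.504 times its lowest, against 10.4 times for Krt1, 9.36 for Krt10, 8.497 for Calm4, 3.05 for Krtdap and 2.35 for Sbsn. The untreated and N1-AcSpd HFSC libraries overlapped, with a log2 difference of 0.07 (SE 0.14) that changed sign without mouse 1 of the untreated or mouse 2 of the N1-AcSpd HFSCs. Dmkn was 1.44-fold lower in HFSCs than in progenitors with N1-AcSpd (−0.52, SE 0.14).

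Calm4 RNA was at 52.5 and 49.0 CPM in untreated progenitors, 14.8 and 21.4 in untreated HFSCs, 176 and 132 in N1-AcSpd progenitors, and 27.8 and 50.4 in N1-AcSpd HFSCs. Both N1-AcSpd progenitor libraries were far above the others, and the N1-AcSpd HFSCs overlapped the untreated progenitors. It was 2.81-fold lower in untreated HFSCs than in untreated progenitors (log2 fold change −1.49, SE 0.29) and 3.92-fold lower with N1-AcSpd (−1.97, SE 0.28). With N1-AcSpd the level was 3.03-fold higher in progenitors (1.60, SE 0.28) and 2.17-fold higher in HFSCs (1.12, SE 0.28).

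**Figure D1:**
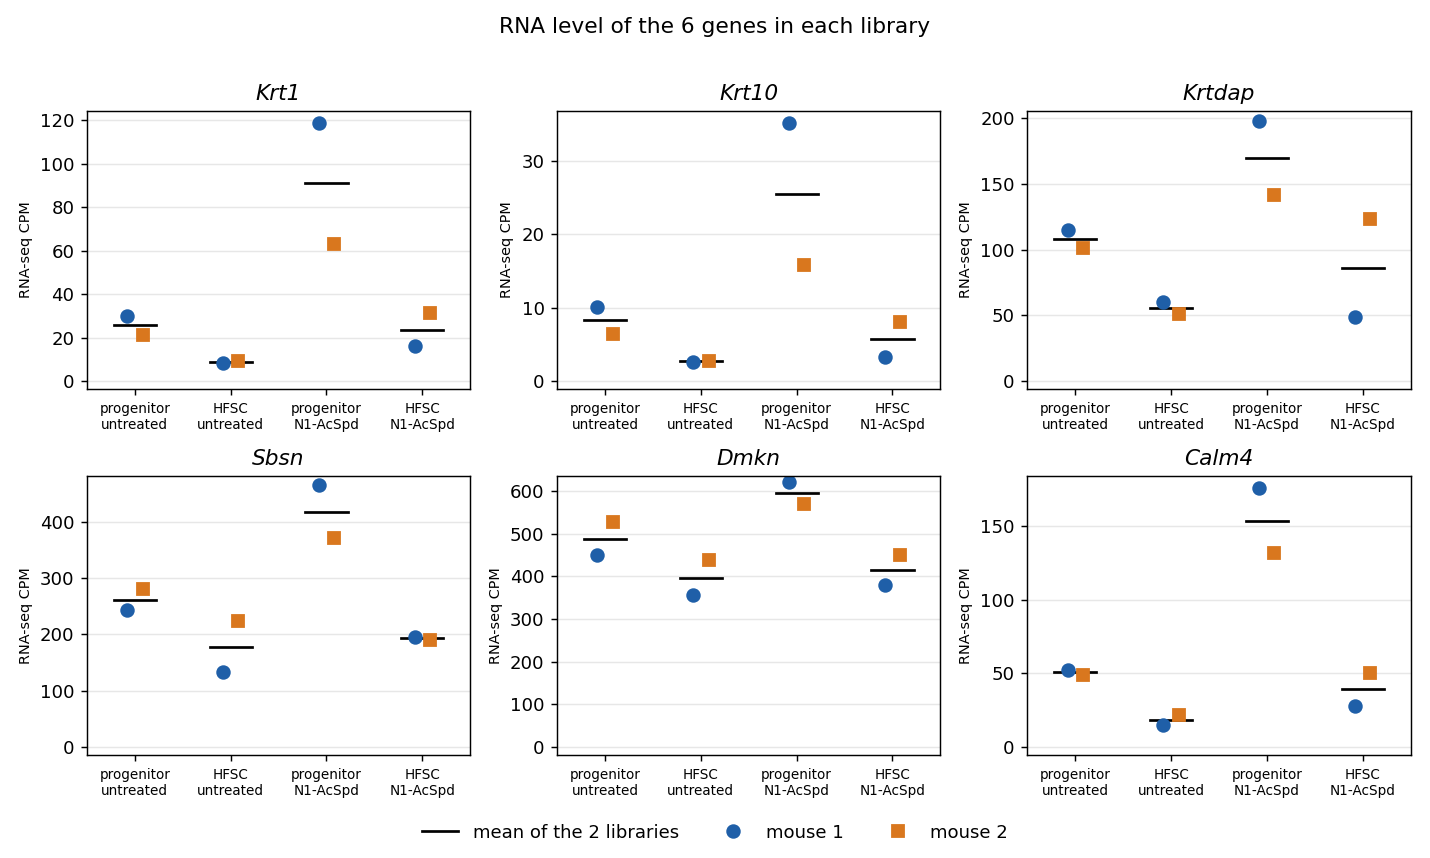
RNA-seq CPM of each gene (linear axis) in the 4 groups on the horizontal axis, with mouse 1 as blue circles, mouse 2 as orange squares and the mean of both as a black line. In all 6 panels the N1-AcSpd progenitors are highest, and Krt1 runs from 8.24 to 119 CPM.

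Between untreated HFSCs and progenitors, all 6 genes had lower RNA in HFSCs, and their median log2 difference was −1.22 against −0.01 over all 14205 genes tested. In 6 of 6 the groups did not overlap, which holds with HFSCs lower for 21.6% of genes. None passed an adjusted p of 0.05 in the quasi-likelihood test of edgeR (p adjusted over all genes by Benjamini-Hochberg), where 0.0352% of genes were called lower, and the adjusted p ranged from 0.0936 for Calm4 to 0.56 for Dmkn. At an unadjusted p under 0.05, 5 of 6 were lower, against 4.37% of genes. DESeq2 called 3 (Krt1, Krt10 and Calm4), against 0.788% of genes.

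With N1-AcSpd in both cell types, the 6 genes were again lower in HFSCs, with a median of −1.52 against 0.00 over all genes. The groups did not overlap for any of the 6 (19.5% of genes), and 6 of 6 had an unadjusted p under 0.05 (5.37%). Calm4 fell by 1.97 on the log2 scale, with an adjusted p of 0.0248 in edgeR's test, where 0.444% of genes were called lower. The other 5 had adjusted p from 0.0583 for Krt1 to 0.336 for Krtdap. The Calm4 call was lost without mouse 1 of the progenitors (adjusted p above the threshold in edgeR), without mouse 1 of the HFSCs, with the mouse as a block and with only these 4 libraries in the fit, while DESeq2 called all but Krtdap, against 1.37% of genes. Krt1 gained a call without mouse 2 of the progenitors. Its log2 difference ran from −2.47 to −1.41 without 1 library at a time.

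In progenitors, N1-AcSpd went with higher RNA for all 6 genes, with a median log2 fold change of 1.14 against −0.01 over all genes. No pair of groups overlapped, as for 18.1% of genes with N1-AcSpd higher. None passed the adjusted threshold in edgeR (0.218% of genes were called higher), with adjusted p from 0.0729 for Calm4 and 0.109 for Krt1 to 0.675 for Krtdap. An unadjusted p under 0.05 was reached by 4 of 6 (Krt1, Krt10, Sbsn and Calm4; 4.48% of genes), and DESeq2 called Krt1, Krt10 and Calm4, against 0.887% of genes.

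In HFSCs, the median log2 difference with N1-AcSpd was 0.86 over the 6 genes, against −0.01 over all genes. Krt1, Krt10 and Calm4 were higher in both N1-AcSpd libraries than in both untreated ones, a separation found for 16.7% of genes, and the 3 secreted genes overlapped. No gene of the whole table was called here by edgeR (0% of genes), 2 of the 6 had an unadjusted p under 0.05 (Krt1 and Calm4; 4.31% of genes), and DESeq2 called the same pair, against 0.704% of genes. Whether the N1-AcSpd change differed between HFSCs and progenitors was tested with the interaction term, which was below 0 for all 6 genes, from −0.56 (SE 0.31) for Sbsn to −0.02 (SE 0.50) for Krtdap. Its adjusted p in edgeR did not pass the threshold for any of the 14205 genes, of which 118 had an unadjusted p under 0.05, and the smallest unadjusted p among the 6 was 0.108.

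Averaged over the treatments, which uses all 8 libraries and was added after the values were seen, 4 of the 6 genes were called lower in HFSC RNA, against 1.8% of genes. Calm4 fell by 1.73 on the log2 scale (adjusted p 0.00446, edgeR), Krt1 by 1.75 (0.0101), Krt10 by 1.87 (0.0206) and Sbsn by 0.84 (0.0257). Krtdap and Dmkn had fold changes of −0.97 and −0.41 with adjusted p of 0.0774 and 0.0628. With the mouse as a block Dmkn was called too (1.43% of genes called lower), and with no minimum count all 6 were called (2.43% of genes). Without mouse 1 of the untreated or of the N1-AcSpd progenitors the calls left were those of Krt1 and Calm4. Krt10 was also lost without either untreated HFSC library, and Sbsn without either N1-AcSpd HFSC library or mouse 2 of the untreated progenitors. Krtdap gained a call without mouse 2 of the N1-AcSpd HFSCs. Its log2 difference ran from −1.36 to −0.71 without 1 library at a time.

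Averaged over the cell types, 2 of the 6 were called higher with N1-AcSpd, against 1.2% of genes: Krt1 (log2 fold change 1.64, SE 0.26, adjusted p 0.0221 in edgeR) and Calm4 (1.36, SE 0.20, adjusted p 0.0173). Krt10 had a change of 1.35 with an adjusted p of 0.0935, and the 3 secreted genes had changes of 0.18 to 0.64. Both calls were lost without mouse 1 of the untreated HFSCs or without any of the 4 progenitor libraries except mouse 2 of the N1-AcSpd progenitors, and Krt1 was also lost without mouse 2 of the untreated or N1-AcSpd HFSCs. Krtdap gained a call without mouse 1 of the N1-AcSpd HFSCs. Its log2 change ran from 0.24 to 0.90 without 1 library at a time. The mouse as a block kept the call of Calm4 alone, with 0.676% of genes called higher.

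**Figure D2:**
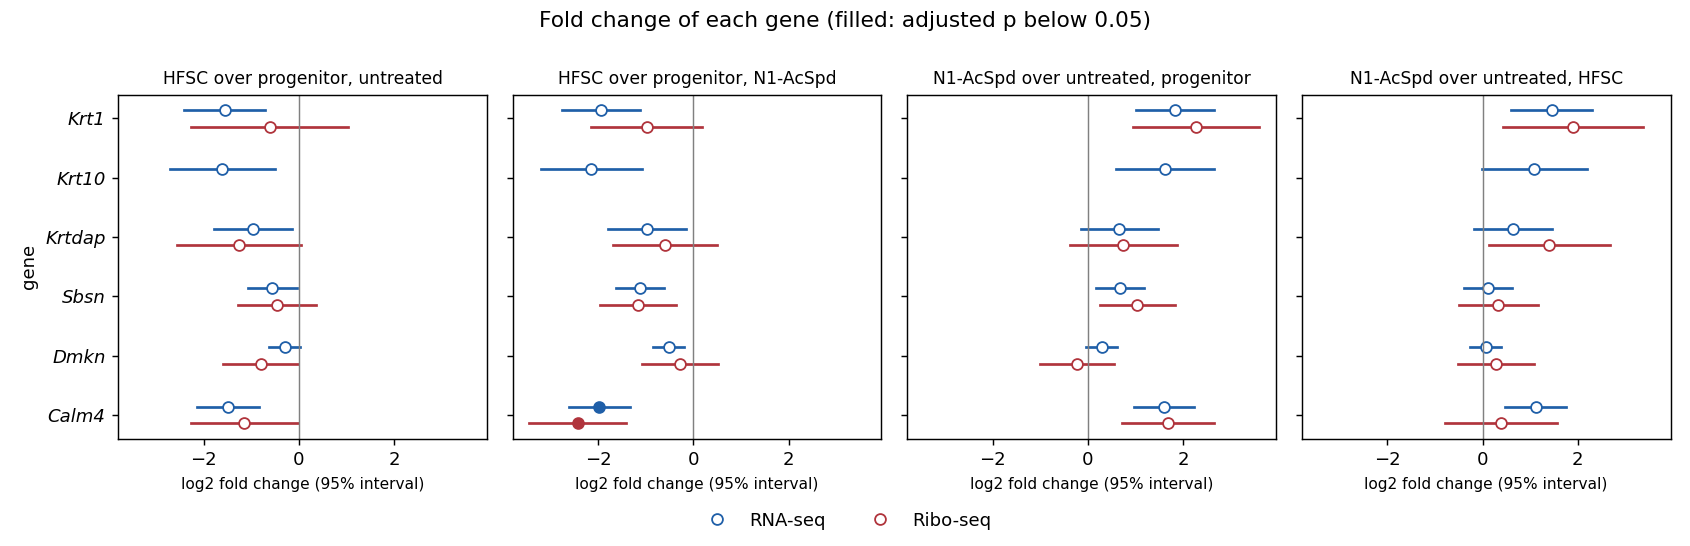
Log2 fold change with its 95% interval from edgeR (horizontal axis) for each gene (vertical axis) in the 4 comparisons, RNA-seq in blue and Ribo-seq in red, with filled points for an adjusted p below 0.05. Calm4 between N1-AcSpd cells is the gene with filled points, at −1.97 in RNA-seq and −2.43 in Ribo-seq; Krt10 has no Ribo-seq point because it had 9 footprints in all.

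Footprints give the share of ribosomes on each message and were sparse for these genes. Over the 8 Ribo-seq libraries there were 654 footprints on Dmkn, 561 on Sbsn, 207 on Calm4, 142 on Krtdap, 100 on Krt1 and 9 on Krt10. The Krt10 footprints were 0 and 4 in untreated progenitors, 0 and 0 in untreated HFSCs, 1 and 2 in N1-AcSpd progenitors and 1 and 1 in N1-AcSpd HFSCs, which allows no comparison. In the library with the fewest footprints, a count of 0 still allows a share of up to 0.0087% of all footprints. Of the 28-base words in the coding sequence, 96.0% are found at 1 place in the genome for Krt10, as for 96.4% of those of Krt1 and 61.7% of those of Sbsn. For Krt5 the share was 83.6% and for Krt14 61.8%. The part of these shares in footprint levels compared between genes was not tested.

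Krt1 footprints, in mice 1 and 2, were at 100.7 and 48.6 CPM (4 and 12 footprints) in untreated progenitors and 53.7 and 32.1 (3 and 4) in untreated HFSCs. With N1-AcSpd they were at 349 and 251 CPM (28 and 15) in progenitors and 202 and 83.0 (29 and 5) in HFSCs. Mouse 1 was the higher one in all 4 groups, and both N1-AcSpd progenitor libraries were above the other 6. The log2 fold change with N1-AcSpd was 2.27 (SE 0.68) in progenitors, and 1.56 without mouse 2 of the untreated progenitors. In HFSCs it was 1.91 (SE 0.75), and it was 0.99 without mouse 1 of the N1-AcSpd HFSCs and 1.41 without mouse 2 of the untreated ones. Averaged over the cell types it was 2.09 (SE 0.50) with an adjusted p of 0.0471 in edgeR, where 0.0474% of genes were called higher, and it lost that call with the mouse as a block, with sums over transcripts, with the transcript of most RNA-seq counts and with either other minimum count. It was kept without mouse 2 of the N1-AcSpd HFSCs or mouse 1 of the untreated progenitors and lost without any other library.

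Calm4 footprints were at 176 and 231 CPM (7 and 57 footprints) in untreated progenitors, 107 and 88.3 (6 and 11) in untreated HFSCs, 772 and 587 (62 and 35) in N1-AcSpd progenitors, and 195 and 16.6 (28 and 1) in N1-AcSpd HFSCs. Progenitors and HFSCs did not overlap in either state, which holds with HFSCs lower for 15.2% of genes untreated and 15.9% with N1-AcSpd. Of the 6 genes, 2 and 3 were separated in this way. The lowest Calm4 value came from 1 footprint. The log2 fold change between N1-AcSpd HFSCs and progenitors was −2.43 (SE 0.51; adjusted p 0.0097 in edgeR, 0.0237% of genes called lower). It was −1.74 and not called without mouse 2 of the HFSCs, −5.23 and called without mouse 1, was lost without either progenitor library, and was not called by DESeq2, with a minimum mean of 10 counts or with transcripts summed. Averaged over the treatments, Calm4 fell by 1.79 (SE 0.38, adjusted p 0.00404, edgeR), against 0.0712% of genes, and was the only one of the 6 called. Without mouse 2 of either HFSC group, mouse 1 of the N1-AcSpd progenitors or mouse 2 of the untreated progenitors that call was lost, and without mouse 1 of the N1-AcSpd HFSCs the value was −3.18.

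Krtdap footprints, in the same order of groups, were at 201 and 154, at 107 and 48.2, at 436 and 117, and at 251 and 99.5 CPM. Mouse 1 was above mouse 2 in each group, and progenitors and HFSCs overlapped with N1-AcSpd. Sbsn footprints were at 277 and 778, at 394 and 433, at 1394 and 955, and at 614 and 415 CPM. Both N1-AcSpd progenitor libraries were above the rest for Sbsn, with a log2 fold change of −1.17 (SE 0.41) between N1-AcSpd HFSCs and progenitors. Dmkn footprints were at 629 and 1139, at 197 and 795, at 946 and 603, and at 586 and 697 CPM, with overlap in all 4 comparisons.

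Between untreated cells none of the 6 passed the adjusted threshold for footprints in edgeR (0% of genes lower), 2 had an unadjusted p under 0.05 (1.42% of genes), and DESeq2 called none. For N1-AcSpd in progenitors the adjusted count was also 0 (0% of genes higher), with 3 at an unadjusted p under 0.05 (1.11% of genes) and an adjusted p of 0.648 for Calm4 and 0.67 for Krt1. In HFSCs it was 0 again (0% of genes higher), with 2 at an unadjusted p under 0.05 (1.72% of genes), and DESeq2 called none in either. Without Krt10, the median log2 fold changes of the other 5 genes were −0.80, −0.98, 1.04 and 0.39 in the order of the RNA comparisons, against −0.02, 0.03, −0.05 and 0.00 over all 8431 genes tested.

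**Figure D3:**
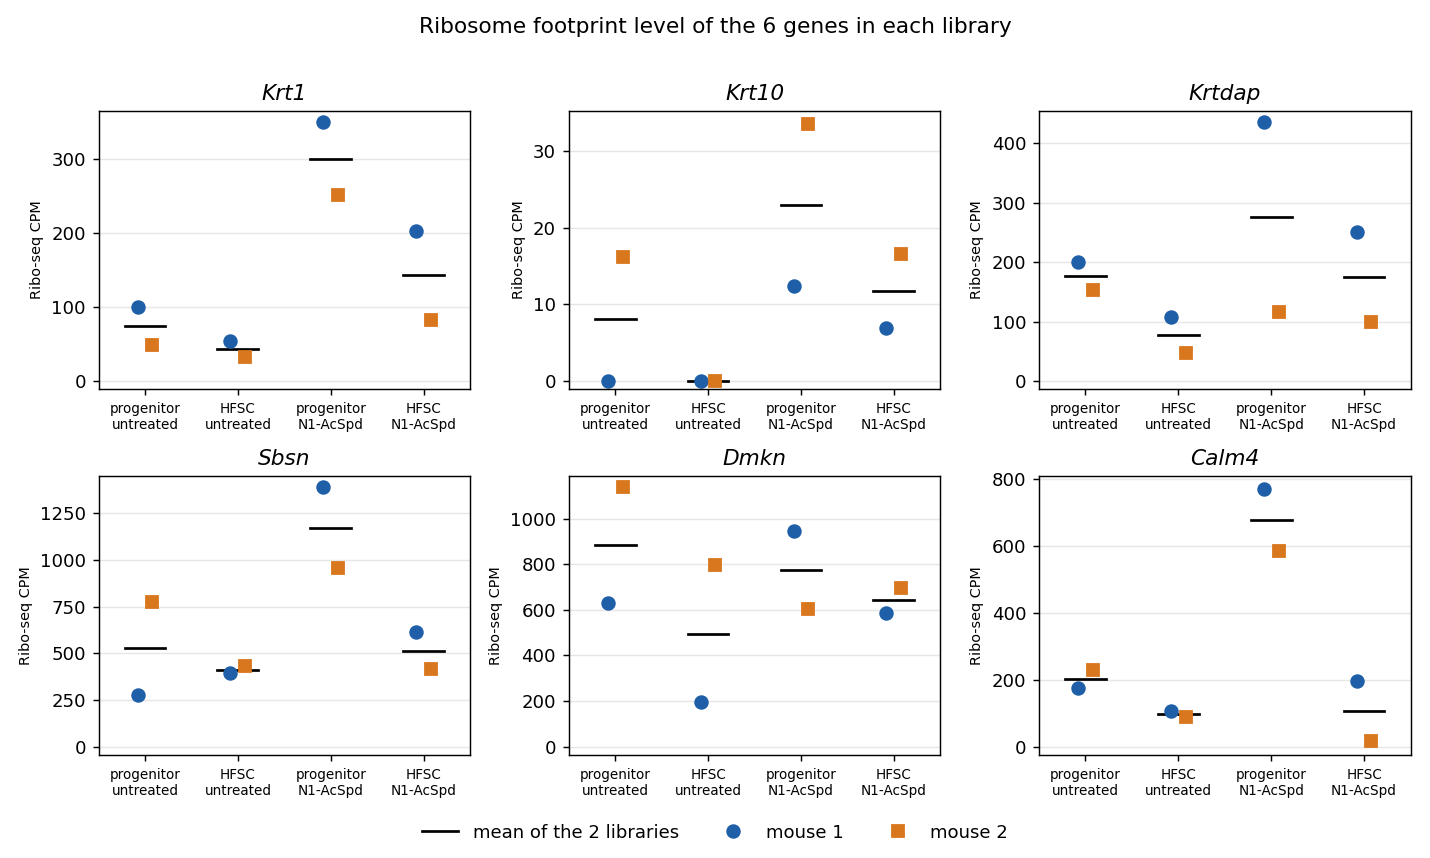
Ribo-seq CPM of each gene (linear axis) in the 4 groups, with mouse 1 as blue circles, mouse 2 as orange squares and the mean as a black line. Calm4 reaches 772 and 587 CPM in N1-AcSpd progenitors and at most 231 CPM elsewhere, and Krt10 points stand for 0 to 4 footprints each.

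Translational efficiency, the footprint level relative to the RNA level, was tested as the interaction of assay and group in edgeR, with calls at an unadjusted p under 0.05. None of the 6 genes was called in any comparison, by edgeR or by DESeq2, and Krt10 was below the minimum count with N1-AcSpd in HFSCs. Among all genes 5.24% were called between untreated cells, 6.24% between N1-AcSpd cells, 6.1% with N1-AcSpd in progenitors and 6.87% with N1-AcSpd in HFSCs. The smallest p was 0.088, for Dmkn with N1-AcSpd in progenitors (log2 change −0.67, SE 0.37). The mouse as a block made that a call, in a fit where 547 of 8522 genes were called. The log2 changes of Krt1 were 0.95 (SE 0.81) between untreated cells and 1.05 (SE 0.70) between N1-AcSpd cells. Without 1 library at a time they ran from 0.31 to 1.52 and from −0.33 to 1.87. For Calm4 the changes were 0.21 (SE 0.52) and −0.33 (SE 0.63) in the same comparisons, and ran from −0.17 to 0.70 and from −3.75 to 0.63. Without 1 of the libraries compared, calls appeared for Krt1, Krtdap, Dmkn or Calm4 in the 3 comparisons that include HFSCs, by 0 to 2 genes per fit, where 4.65% to 7.09% of all genes were called.

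The ratio of Ribo-seq CPM to RNA-seq CPM was also taken for each lysate. As a ratio of means over the 8 libraries it was 4.15 for Calm4, above 97.02% of 8430 genes, and 3.75 for Krt1, above 95.8%. Sbsn was at 2.504, Krtdap at 1.69, Dmkn at 1.47 and Krt10 at 1.02, where the median gene was at 1.202. The Krt1 ratio was 2.29 to 6.52 in 7 lysates and 12.5 in mouse 1 of the N1-AcSpd HFSCs, and the Calm4 ratio was 3.36 to 7.27 in 7 lysates and 0.329 in mouse 2 of that group. These extremes come from the pair of lysates whose RNA-seq libraries stood apart, where RNA was lower in mouse 1 and footprints lower in mouse 2 for Krt1, Krtdap and Calm4. Each ratio takes both libraries of a number as 1 lysate. With the RNA-seq numbers of that group exchanged, the ratios would be 6.44 and 5.12 for Krt1 and 3.88 and 0.597 for Calm4. The ratio depends on coding length relative to transcript length, which was not corrected.

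**Figure D4:**
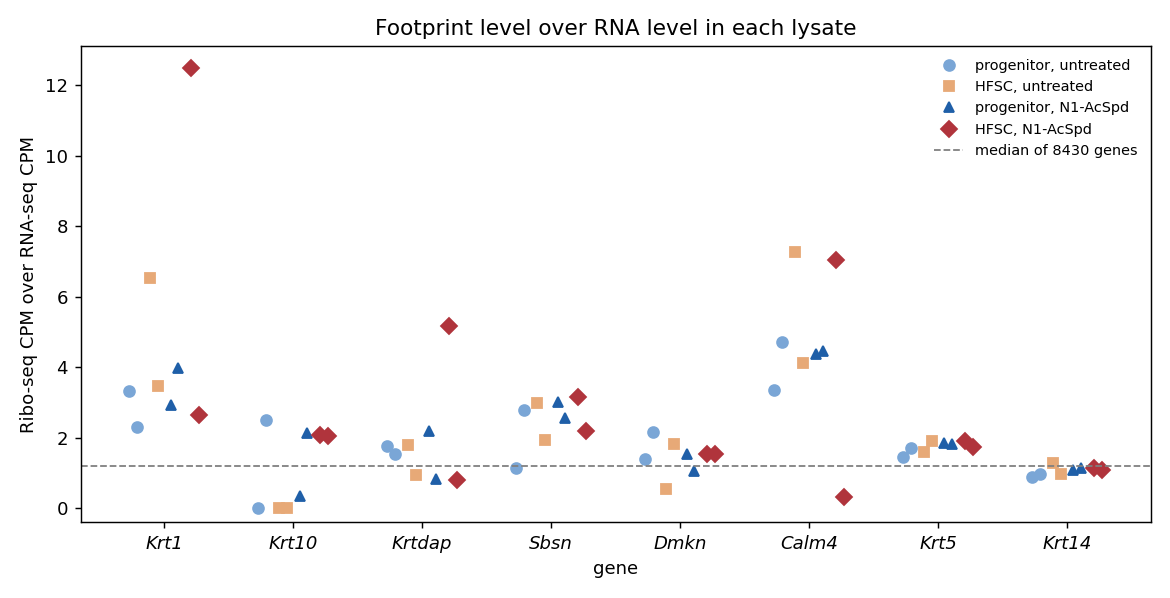
Ribo-seq CPM divided by RNA-seq CPM in each lysate (vertical axis) for the 6 genes and the basal keratins Krt5 and Krt14 (horizontal axis), by group, with the median of 8430 genes as a dashed line. Krt1 lies above the line in all 8 lysates and Calm4 in 7, with extremes of 12.5 for Krt1 and 0.329 for Calm4 in the N1-AcSpd HFSCs.

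Krt1 and Krt10 were a very small part of the keratin messages in every library. Of the RNA-seq counts on Krt1, Krt10, Krt5 and Krt14 together, they made up 0.105% and 0.0703% in untreated progenitors (mice 1 and 2) and 0.0323% and 0.0334% in untreated HFSCs. With N1-AcSpd the share was 0.429% and 0.209% in progenitors and 0.0575% and 0.12% in HFSCs. The exact 95% binomial interval of the highest share was 0.415% to 0.444% and that of the lowest 0.029% to 0.0359%, for counting error only. In Ribo-seq the share ran from 0.0603% (4 of 6629 footprints, exact 95% interval 0.0164% to 0.154%) in an untreated HFSC library to 0.658% (29 of 4404, 0.441% to 0.944%) in an N1-AcSpd progenitor library.

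The denominator of that share moved little. Krt5 RNA was between 18139 and 21514 CPM and Krt14 RNA between 14600 and 17819 CPM over the 8 libraries. Their log2 fold changes were −0.18 to −0.05 in the 4 RNA comparisons, and neither gene was called. Krt10 had 0.208 to 0.334 counts for each Krt1 count in RNA-seq, 0.303 to 0.334 in the 4 untreated libraries and 0.208 to 0.296 in the 4 N1-AcSpd libraries, so that the untreated libraries did not overlap the N1-AcSpd ones. With all transcripts of each gene summed the ratio was 0.445 to 0.725 and 0.311 to 0.429, and the separation was the same.

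Dmkn has a long transcript of 20 exons from the distal start and a short one of 7 exons that begins at chr7:30776401, beside the internal promoter printed above. The short transcript shares 560 bases with the long one, 27.1% of its 2063 bases. In RNA-seq, the count on the short transcript was 73.6% to 82.7% of the count on the long one in all 8 libraries. The highest shares, 81.5% and 82.7%, were those of the N1-AcSpd HFSCs, next to 80.9% in an N1-AcSpd progenitor library and 80.8% in an untreated HFSC library, and the lowest, 73.6%, was that of the other N1-AcSpd progenitor library. In Ribo-seq it was 53.9% to 83.3%. How reads in shared exons were assigned is not given in the sources used here, so these shares are not the amounts of the transcripts.

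Among themselves the 6 genes moved closely together in RNA-seq. Pearson's r of log2 CPM between pairs ran from 0.74 (Krtdap and Sbsn) to 0.98 (Krt1 with Krt10 and with Calm4), with a median of 0.91 over 15 pairs and 8 libraries. In Ribo-seq the median was 0.51, from 0.15 to 0.76. The libraries of a group share their condition, so these values are descriptions. The mean centred log2 CPM of the 6 genes was 1.46 and 0.89 in N1-AcSpd progenitors, 0.18 and 0.01 in untreated progenitors, −0.68 and 0.08 in N1-AcSpd HFSCs, and −1.11 and −0.84 in untreated HFSCs.

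Of 455 other genes with a mean of at least 5 CPM and an SD of log2 CPM of at least 0.5, the 10 whose RNA was most like that mean over the 8 libraries had r of 0.98 to 0.99. They were Casp14 (r 0.99), a protease of cornifying keratinocytes; Dsg1a and Dsc1, cadherins of suprabasal desmosomes; Lypd3, Asprv1, Cyp4f39, Crabp2, Notch3, Nipal4 and Cldn4. Asprv1, a protease that processes filaggrin, had group means of 77.0 CPM in N1-AcSpd progenitors and 5.35 CPM in untreated HFSCs. Dsc1 had group means of 55.8 and 5.38 CPM in the same groups, and Notch3, a receptor of the Notch family, 29.9 and 7.12 CPM. Casp14 had 15.05 and 2.21 CPM. A prior count of 0.5 in place of 2 gave the same 10 genes.

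**Figure D5:**
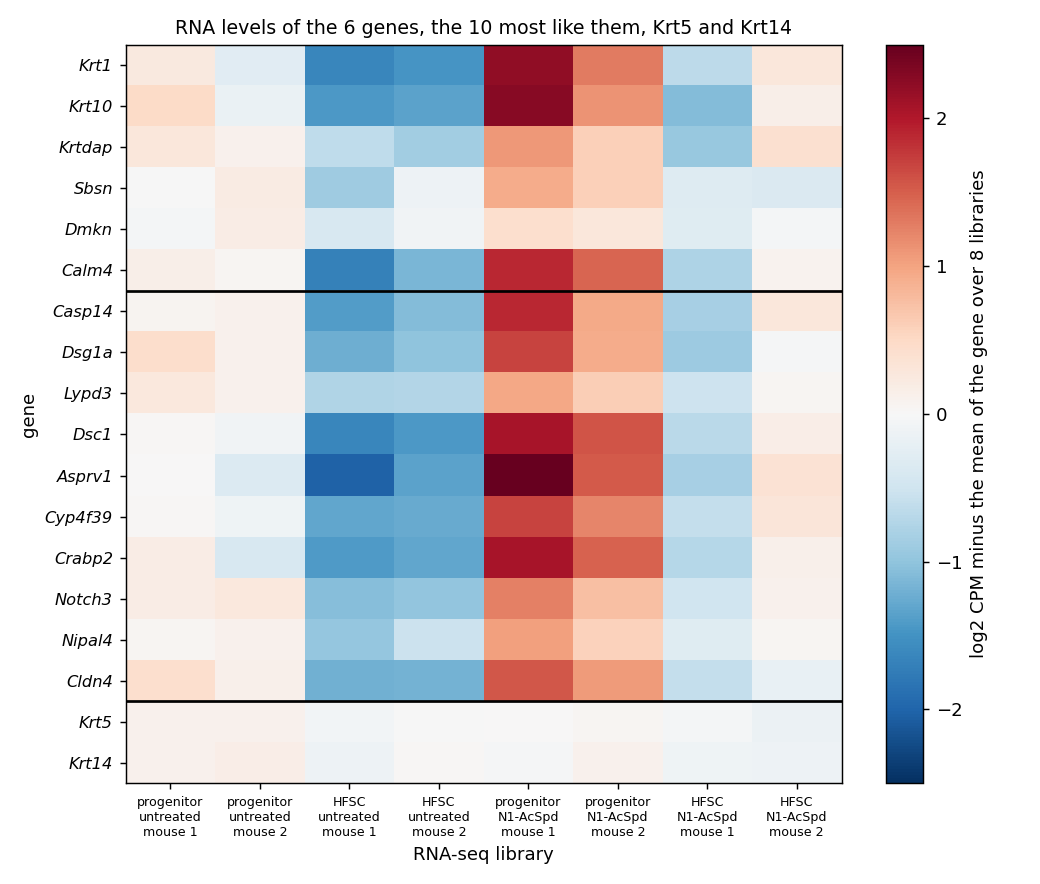
Log2 RNA-seq CPM minus the gene's mean over 8 libraries (colour) for the 6 genes (top), the 10 genes most like them (middle) and Krt5 and Krt14 (bottom), by library. The top and middle blocks are red in N1-AcSpd progenitors and blue in untreated HFSCs, except that Sbsn and Dmkn are near white in mouse 2 of the untreated HFSCs. The basal keratins are near white in all libraries.

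Other genes of the programme were counted on lists that were also drawn up with earlier results known. Of 29 spinous and suprabasal genes tested, 6 were called lower in N1-AcSpd HFSCs than in N1-AcSpd progenitors (median log2 fold change −1.52; 0.444% of all genes called lower) and 0 between untreated cells by edgeR (0.0352%), where 17 were lower at an unadjusted p under 0.05 (4.37%). The desmosomal cadherin Dsc1 had a level 4.06-fold lower in N1-AcSpd HFSCs (adjusted p 0.0173, edgeR), Ly6g6c one 4.32-fold lower, Krt80, a type II keratin, one 3.00-fold lower and the cadherin Dsg1b one 2.86-fold lower. With N1-AcSpd in progenitors 1 of the 29 was called higher (Dsc1, 3.62-fold, adjusted p 0.045 in edgeR), against 0.218% of all genes. With the mouse as a block, 2 of the 29 were called between N1-AcSpd cells, Dsc1 and Dsg1b (0.176% of all genes called lower), and 0 with N1-AcSpd in progenitors by edgeR (0.0422% called higher), where 20 were higher at an unadjusted p under 0.05 without the block (4.48%). The edgeR calls between N1-AcSpd cells were lost without mouse 1 of the HFSCs or mouse 1 of the progenitors. Dsc1 and Dsg1b were kept without mouse 2 of the progenitors. Each such fit leaves 1 library in a group. In the fits without a mouse 1 library the calls of lower genes were lost over the whole table, so the loss was not particular to this list. The Dsc1 call with N1-AcSpd in progenitors was lost without any 1 of the 4 progenitor libraries. DESeq2 called 10 between untreated cells, 14 between N1-AcSpd cells and 12 with N1-AcSpd in progenitors, against 0.788%, 1.37% and 0.887% of all genes. With N1-AcSpd in HFSCs 0 of the 29 were called by edgeR (0% of all genes), 15 were higher at an unadjusted p under 0.05 (4.31%) with a median of 0.80, and DESeq2 called 6 (0.704%).

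Of 29 granular and cornified genes tested, 12 were called lower in N1-AcSpd HFSCs than in N1-AcSpd progenitors and 10 were called higher with N1-AcSpd in progenitors, with medians of −1.72 and 2.07 and against 0.444% and 0.218% of all genes. With the mouse as a block 7 and 4 were called, against 0.176% and 0.0422% of all genes; Ivl and Alox12b were called in both, and Sprr1b and Kprp with N1-AcSpd in progenitors. Ivl, the envelope protein involucrin, was 2.61-fold higher with N1-AcSpd in progenitors (adjusted p 0.0054, edgeR), Sprr1b, another envelope protein, 3.05-fold, Alox12b, a barrier lipoxygenase, 4.51-fold, and Kprp 13.6-fold from a mean of 0.669 CPM. Between N1-AcSpd cells the edgeR calls of these genes were lost without mouse 1 of the HFSCs or of the progenitors, and fewer remained without mouse 2 of either. With N1-AcSpd in progenitors fewer remained without either N1-AcSpd library (Ivl both times), and the calls were lost without either untreated library. Each such fit leaves 1 library in a group. Where the calls of this list were lost, those of the whole table in the same direction were lost too, so the loss was not particular to this list. DESeq2 called 17 and 20, against 1.37% and 0.887% of all genes. Between untreated cells 1 was called lower by edgeR (0.0352%), 20 were lower at an unadjusted p under 0.05 (4.37%) and DESeq2 called 13 (0.788%). With N1-AcSpd in HFSCs 0 were called by edgeR (0%), 19 were higher at an unadjusted p under 0.05 (4.31%) and DESeq2 called 14 (0.704%), and the medians of these comparisons were −1.27 and 1.36. The medians of the 6 genes described here were −1.52 between N1-AcSpd cells and 1.14 with N1-AcSpd in progenitors, and the lists were not tested against each other.

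Of 23 suprabasal regulators (transcription factors and Notch components) none was called in the 4 RNA comparisons by edgeR, and their medians were between −0.13 and 0.05. At an unadjusted p under 0.05, 3 were lower in untreated HFSCs and 8 in N1-AcSpd HFSCs than in progenitors (4.37% and 5.37% of all genes), and 5 were higher with N1-AcSpd in progenitors and 3 in HFSCs (4.48% and 4.31%), while 2, 1, 1 and 0 differed the other way. Of 15 HFSC markers, 15 were higher in HFSCs in both states, with medians of 1.55 untreated and 0.99 with N1-AcSpd. At an unadjusted p under 0.05, 15 and 14 were higher, against 740 and 828 of 14205 genes. In both states 4 were called higher (0.113% of all genes untreated and 0.303% with N1-AcSpd). Among these was Cd34, the antigen of the sort, so its call was set by the design. Krt15, a bulge keratin, was 4.02-fold higher without treatment and 3.27-fold higher with N1-AcSpd. Without 1 library at a time Krt15 was called each time in both states, and others of the 4 were lost in some fits. Those fits leave 1 library in a group, and calls of higher genes fell over the whole table as well. With the mouse as a block 3 and 4 of the markers were called, against 0.0211% and 0.134% of all genes. Of the 15 markers, 11 were lower and 4 higher with N1-AcSpd in progenitors (median −0.23), and 13 and 2 in HFSCs (median −0.33). At an unadjusted p under 0.05, 3 and 2 were lower (4.4% and 3.44% of all genes) and 0 higher. Cd34 had group means of 77.1 CPM in untreated and 79.1 CPM in N1-AcSpd HFSCs. With N1-AcSpd, Krt15 had a level 2.21-fold lower in HFSCs (log2 fold change −1.14, SE 0.12, adjusted p 0.0561 in edgeR, called by DESeq2). In progenitors Krt15 was 1.79-fold lower (−0.84, SE 0.12, adjusted p 0.0427 in edgeR, where 0.0211% of genes were called lower). The call in progenitors was lost with the mouse as a block and without any 1 of the 4 progenitor libraries. Of 13 basal and hemidesmosome genes none was called in the same comparisons, with medians of −0.16 to −0.06. At an unadjusted p under 0.05, 3, 1, 2 and 1 of them were lower, against 4.37%, 5.37%, 4.4% and 3.44% of all genes, and 0 higher. Averaged over the treatments, the regulators Grhl3 and Zfp750 were called lower in HFSCs, and neither was called with the mouse as a block, without mouse 2 of the untreated HFSCs or without mouse 1 of either progenitor group. In that contrast 1 of the 13 basal genes was called lower (1.8% of all genes), with the mouse as a block too (1.43%). Its call was lost without mouse 1 of either progenitor group. Averaged over the cell types, 2 of the 23 regulators were called higher with N1-AcSpd (1.2% of all genes), and 1 with the mouse as a block (0.676%).

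Of the markers of other cells that a sort could hold, those of fibroblasts, immune cells, endothelial cells and melanocytes were low. The summed RNA level was 1.07 to 17.4 CPM for 8 fibroblast markers, 0.317 to 3.22 CPM for 8 immune markers (4 at 0 in all libraries, Cd207 and Lyz2 among them), 0.966 to 2.43 CPM for 5 endothelial markers with Cdh5 at 0, and 7.82 to 13.8 CPM for 7 melanocyte markers. The fibroblast sum was 1.81 and 17.4 CPM in N1-AcSpd progenitors and at most 6.63 CPM elsewhere. Of the 7 fibroblast markers tested, 7 were higher with N1-AcSpd in progenitors (median log2 difference 1.42) and 7 lower in N1-AcSpd HFSCs than in N1-AcSpd progenitors (−1.29), in the direction of the 6 genes, and 0 had an unadjusted p under 0.05. The melanocyte sum was 8.37 and 7.82 CPM in N1-AcSpd progenitors and highest, at 12.01 and 13.8 CPM, in untreated HFSCs. Of the 5 melanocyte markers tested, 3 were higher and 2 lower with N1-AcSpd in progenitors. At an unadjusted p under 0.05 these were 2 and 1, against 4.48% and 4.4% of all genes. In N1-AcSpd HFSCs 3 were lower and 2 higher than in N1-AcSpd progenitors. At the same threshold 2 were lower (5.37% of all genes) and 0 higher, and 0 were called by edgeR in either comparison. Tyrp1, a pigment enzyme, had 9 and 24 RNA-seq counts in N1-AcSpd progenitors and 0 or 1 in every other library, and Dct, another, had 3 and 7 counts there and 0 to 3 elsewhere. The sum was 93.1 to 131 CPM for 8 sebaceous markers, of which 5 were tested. With N1-AcSpd averaged over the cell types all 5 had a higher level and 1 was called by edgeR (1.2% of genes). The part of these markers in the levels of the 6 genes was not tested. The sum for 10 markers of the inner bulge, companion layer and root sheath was 17064 and 15761 CPM in N1-AcSpd progenitors, 13116 and 14551 CPM in untreated progenitors and 9060 to 11565 CPM in the 4 HFSC libraries, so it was higher in progenitors, as the 6 genes were; its part in their levels was not tested. Gene by gene, 6 of the 9 tested were higher and 3 lower with N1-AcSpd in progenitors, with a median log2 difference of 0.19. Between untreated cells 8 were lower and 1 higher in HFSCs (median −0.74). At an unadjusted p under 0.05, 4 were lower (4.37% of all genes) and 1 higher. Between N1-AcSpd cells 6 were lower and 3 higher in HFSCs (median −0.47). There 4 were lower at an unadjusted p under 0.05 (5.37%) and 0 higher, and edgeR called 1 lower (0.444%). In these bulk samples, fewer cells that express a gene and less RNA per cell cannot be told apart.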

How the data were processed

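The study sequenced RNA and ribosome footprints of 8 lysates: 2 cell types, 2 treatments and 2 mice. Per the methods, the authors trimmed reads with flexbar and removed rRNA and tRNA reads; the submitters' processing notes name Bowtie 1.2.3, STAR 2.7.3a, featureCounts and GRCm38.p5. The deposited values are counts per transcript, not normalized, for 64026 transcripts; how reads shared by transcripts were assigned is not given in the sources used here. The authors' differential translation tables also hold their fold changes and p-values, which were not used. Footprints carried no molecular identifiers, so PCR copies are counted.

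Here 1 transcript per gene was kept, that with the most footprints. CPM are counts over the TMM-adjusted library sizes of those kept. Genes whose mean count reached 1 were fitted in R 4.3.3 with edgeR 4.0.16 (TMM factors, quasi-likelihood test, 4 groups per assay, Benjamini-Hochberg adjustment over all genes, threshold 0.05). Translational efficiency was the interaction of assay and group over 8 libraries, called at an unadjusted p under 0.05. Scripts were tested on simulated data. The alternatives were DESeq2 1.42.0, RLE factors, other minimum counts, other transcript choices, only the libraries compared, the mouse as a block and leaving out each library; averaged contrasts, the exchanged block and ratio, and the refits of the other lists were added after the data were seen. Log2 CPM used a prior count of 2.

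The genes, their lists and the tests were chosen with earlier results of these data known. Genes were named as the 6, Krt5 and Krt14, the 10 most like them in RNA, and up to 4 called genes per list; Grhl3 and Zfp750 were named after their values were seen, and some calls of the lists in the averaged contrasts are not reported here. Replicate numbers are mice, per the labels. Deviations of same-numbered RNA-seq libraries correlated at 0.35 to 0.59 among 3 groups and at −0.57 to −0.40 with N1-AcSpd HFSCs (12242 genes), and those of Ribo-seq libraries at 0.02 to 0.11 (2259 genes).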

Additional observations from a re-analysis of the deposited data

How the results depend on the processing

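Counts of the 6 genes called in RNA-seq depended on the tool and the filter. DESeq2 called 3 between untreated cells, 5 between N1-AcSpd cells, 3 with N1-AcSpd in progenitors and 2 in HFSCs, where edgeR called 0, 1, 0 and 0; with no minimum count edgeR called 2, 4 and 2 in the comparisons other than that in HFSCs, against 0.437%, 0.892% and 0.499% of all genes in the same direction. With only the libraries compared, 0 were called between N1-AcSpd cells and 1 with N1-AcSpd in progenitors, against 0.119% and 0.198% of all genes. With the replicate block, 0 were called between N1-AcSpd cells (0.176% of all genes) and 1 with N1-AcSpd averaged over cell types (0.676%). In translational efficiency with N1-AcSpd in progenitors the block called 1 (Dmkn), against 547 of 8522 genes. With the mouse numbers of the N1-AcSpd HFSC RNA-seq libraries exchanged in the block, chosen after seeing the data, 4, 6, 3 and 2 were called, and 4 with N1-AcSpd averaged; calls rose over the whole table as well, to 1.9%, 2.75%, 1.7%, 1.18% and 4.37% of all genes in the same direction. Ribo-seq calls between N1-AcSpd cells fell to 0 with DESeq2, a minimum mean of 10 counts or transcripts summed; averaged over treatments they fell to 0 with transcripts summed. Averaged over cell types they fell to 0 with a minimum mean of 10 counts, no minimum, the replicate block, the transcript with most RNA-seq counts or transcripts summed. The cause was not tested.

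Leaving out each library in turn, calls in RNA-seq ranged from 0 to 2 between N1-AcSpd cells (0% to 0.176% of all genes), from 2 to 4 between cell types averaged (0.689% to 1.38%) and from 0 to 3 with N1-AcSpd averaged (0.239% to 0.782%). In Ribo-seq each called comparison ranged from 0 to 1, against at most 0.126% of all genes. In translational efficiency calls ranged from 0 to 2 between N1-AcSpd cells (4.65% to 6.54% of all genes) and from 0 to 1 between untreated cells (4.69% to 6.24%) and with N1-AcSpd in HFSCs (5.93% to 7.09%). Log2 fold changes that changed sign ranged as follows. In RNA-seq with N1-AcSpd in HFSCs, Krtdap ranged from −0.18 to 1.13, Sbsn from −0.19 to 0.54 and Dmkn from −0.051 to 0.22. In Ribo-seq with N1-AcSpd in HFSCs, Sbsn ranged from −0.052 to 0.58, Dmkn from −0.28 to 1.59 and Calm4 from −2.48 to 1.04, and in progenitors Krtdap from −0.60 to 1.32 and Dmkn from −0.67 to 0.30. Between N1-AcSpd cells Krtdap ranged from −1.48 to 0.73 and Dmkn from −0.53 to 0.14, and between untreated cells Sbsn from −0.89 to 0.60. In translational efficiency between N1-AcSpd cells, Krt1 ranged from −0.33 to 1.87, Krtdap from −1.10 to 1.55, Sbsn from −0.37 to 0.16, Dmkn from −0.027 to 0.56 and Calm4 from −3.75 to 0.63. Between untreated cells Krtdap ranged from −0.76 to 0.21, Sbsn from −0.42 to 0.93 and Calm4 from −0.17 to 0.70. With N1-AcSpd in HFSCs Krt1 ranged from −0.77 to 1.49, Krtdap from −0.60 to 2.10, Sbsn from −0.17 to 0.56, Dmkn from −0.22 to 1.38 and Calm4 from −4.003 to 0.43. In progenitors Krt1 ranged from −0.15 to 0.76, Krtdap from −0.94 to 0.52, Sbsn from −0.011 to 1.15 and Calm4 from −0.13 to 0.25.

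Other changes of sign were in translational efficiency: Sbsn at 0.027 between N1-AcSpd cells with no minimum, and at 0.12 with DESeq2 and 0.13 with transcripts summed between untreated cells. With N1-AcSpd in progenitors Krtdap was at −0.36 with the replicate block, and Calm4 at 0.056 with DESeq2, 0.053 with RLE factors, 0.068 with a minimum mean of 10 counts, 0.012 with the transcript with most RNA-seq counts and 0.041 with transcripts summed. With 2 mice per group, footprint counts as low as 1 limit what Ribo-seq and translational efficiency can show.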
